A study of Mus musculus with 2 samples.

Results

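The miR-23, miR-27 and miR-24 microRNAs are encoded together in a pair of clusters in the mouse genome, and the 8 genes described here are those clusters with the microRNA genes on their opposite strand. Mir23a, Mir27a and Mir24-2 form the cluster on chromosome 8, and Mir23b, Mir27b and Mir24-1 form the cluster on chromosome 13. Mir3074-2 lies opposite Mir24-2 and Mir3074-1 opposite Mir24-1. The genes were chosen by name and position, 8 of the 2202 microRNA genes in the count files, and 7 of them had at least 10 counts over both libraries. The libraries were made from total RNA, sized below 30 bases per the labels, of the hippocampus of male B6CASTF1/J mice aged 10 days, the cross of C57BL/6J with CAST/EiJ. They are labelled biological replicates 1 and 2 of a single group, each from 3 males with different animal numbers but the same donor entry. Whether the pools are independent was not settled, so the spread between them may be partly technical.

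MicroRNAs are cut from hairpin transcripts, and each arm of a hairpin, 5p or 3p, can give a mature product. The mature product pairs with target transcripts mainly through its seed, bases 2 to 8, and represses them. The miR-23/27/24 clusters arose by duplication and are known from blood vessel growth, where miR-23 and miR-27 act in endothelial cells. In the nervous system miR-23 has been described in astrocytes and in oligodendrocyte differentiation, and miR-24 represses regulators of cell division such as E2f2. Mir3074 is annotated as a separate microRNA transcribed from the strand opposite miR-24.

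The mature sequences show which reads could be assigned to which gene, and they are printed here for that reason. They come from RefSeq (GRCm38.p6, the same assembly as mm10), written 5′ to 3′ with the seed in capitals. RefSeq hairpins were found for 8 of the 8 genes and equalled the GENCODE hairpins in all 8, and 12 different mature products were found. Entries for miR-23b-3p and miR-3074-1-3p were not among them.
miR-23a-3p: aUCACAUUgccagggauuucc
miR-27a-3p: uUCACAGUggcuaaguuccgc
miR-27b-3p: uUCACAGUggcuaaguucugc
miR-24-3p: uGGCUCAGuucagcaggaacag
miR-24-1-5p: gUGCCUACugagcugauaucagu
miR-24-2-5p: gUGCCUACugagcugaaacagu
miR-3074-5p: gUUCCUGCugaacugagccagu
miR-3074-2-3p: uGUUUCAGcucaguaggcac

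The miR-27-3p products of both clusters share the seed UCACAGU, and no other mature product in the RefSeq table had it. They are equal over the first 18 bases and differ by 1 substitution, C19U, counted from the 5′ end with the miR-27a-3p base first. The miR-24-3p sequence is the same at both loci and occurs in 2 of the 2202 hairpins, Mir24-1 and Mir24-2. Likewise miR-3074-5p occurs whole in both Mir3074-1 and Mir3074-2. By position, miR-3074-5p overlaps miR-24-3p by 20 bases on the opposite strand. The 5p products of miR-24 share the seed UGCCUAC and the first 16 bases, after which they differ. The miR-24-3p seed, GGCUCAG, was also found in miR-5124b, miR-6369, miR-6410 and miR-6413, whose genes had 0 counts in both libraries.

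The hairpins of the miR-24 and miR-3074 genes show where a read can belong to only 1 gene of a pair. Capitals mark stretches of at least 20 bases that occur in both genes of the pair, so an error-free read lying wholly within them fits both places. The gene counts leave out reads that fit several places.
Mir24-1, chr13:63301208-63301275, plus strand: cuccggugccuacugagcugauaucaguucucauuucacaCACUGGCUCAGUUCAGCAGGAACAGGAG
Mir24-2, chr8:84208815-84208921, plus strand: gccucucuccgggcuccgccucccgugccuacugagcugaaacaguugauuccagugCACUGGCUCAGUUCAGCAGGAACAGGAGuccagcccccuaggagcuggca
Mir3074-1, chr13:63301199-63301283, minus strand: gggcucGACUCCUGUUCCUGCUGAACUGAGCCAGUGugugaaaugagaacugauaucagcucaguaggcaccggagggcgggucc
Mir3074-2, chr8:84208825-84208907, minus strand: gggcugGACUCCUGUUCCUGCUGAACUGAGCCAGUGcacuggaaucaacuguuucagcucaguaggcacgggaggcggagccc

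The shared stretch was 28 bases in the Mir24 genes and 30 bases in the Mir3074 genes, and it holds all of miR-24-3p or miR-3074-5p. Their counts can therefore hold the 5p arm of miR-24 and the 3p arm of miR-3074, but not error-free reads of miR-24-3p or miR-3074-5p. Of the 22-base windows in Mir24-1, 7 of 47 occur in another microRNA gene, and 9 of 64 do so in Mir3074-1. The miR-23 and miR-27 genes also share bases across the clusters, with a longest stretch of 20 bases for each pair. None of the 22-base windows of Mir23a, Mir23b, Mir27a or Mir27b occurs in another microRNA gene, so reads of that length without errors fit 1 of these genes. Shorter reads, and reads with sequencing errors, were not analysed here.

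The chromosome 8 cluster spans 404 bases (8:84208518-84208921, mm10, plus strand) and lies in no annotated host gene. Its hairpins are 79 and 56 bases apart, and the noncoding gene Gm26532 begins within the last 2 bases of Mir24-2. The chromosome 13 cluster spans 792 bases (13:63300484-63301275, plus strand) within the gene 2010111I01Rik, which encodes the peptidase aminopeptidase O. Mir23b lies in an intron of it, and Mir27b and Mir24-1 overlap an exon of at least 1 annotated transcript. Its hairpins are 154 and 423 bases apart. Mir3074-1, on the minus strand, lies in an intron of Fancc, a gene of the Fanconi anemia DNA repair pathway that runs opposite to 2010111I01Rik. Mir3074-2 has no host gene on its strand.

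**Figure D1:**
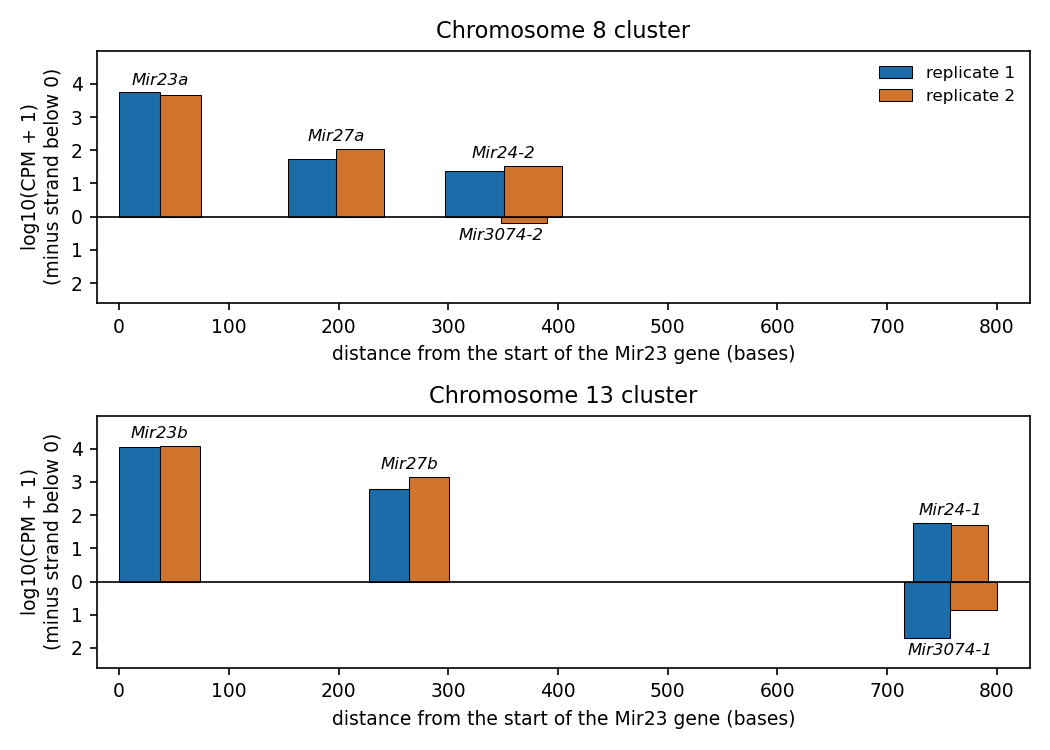
Level of each gene, as log10(CPM + 1), at its distance in bases from the start of the Mir23 gene of its cluster, with the plus strand above 0 and the minus strand below. The left part of each bar is replicate 1 and the right part replicate 2. The level falls from the Mir23 gene to the Mir24 gene in both clusters, and Mir3074-1 is the gene with an appreciable level below the axis. Counts of the Mir24 and Mir3074 genes leave out the stretch shared between the loci.

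Counts on microRNA genes came to 4815761 in replicate 1 and to 3495401 in replicate 2, and levels are CPM, counts per 1000000 of these. Reads that fit several places, 37.7% and 39.8% of all reads, are not among them. A read of this assay spans a whole small RNA, so levels were not divided by hairpin length, and equal capture of different microRNAs was not examined. Of the 13 neuronal marker genes 13 had a count in at least 1 library, and together they took 7.57% and 10.1% of counts. Mir139 and Mir149 held most of this share, while the 3 Mir124a genes and Mir9-2, which share bases with other genes, lay at 3.15 CPM or lower. Also sharing bases with another gene, Mir128-1, Mir128-2, Mir138-1 and Mir138-2 had mean levels of 4439, 1847, 5734 and 2173 CPM. Mir9-1 and Mir9-3, which share bases too, had means of 25.25 and 72.84 CPM. The liver microRNA Mir122 lay at 39.5 and 31.5 CPM. Between the libraries, 101 of 540 genes with at least 10 counts were called different, 18.7%. The call needed a Benjamini-Hochberg adjusted p below 0.05 in a two-sided exact binomial test, and a log2 ratio of 1 or more in either direction. Of the tested genes 11.5% were called higher in replicate 2 and 7.22% higher in replicate 1. This test compares these libraries with counting error only, not conditions. The log2 ratio, replicate 2 over replicate 1, had a median of 0.17 over tested genes with library totals and 0.00094 with DESeq2 size factors, so each ratio below should be read against that shift.

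Together the 8 genes made up 1.80% of the counts of replicate 1 and 1.87% of those of replicate 2. The miR-23 genes made up most of the counts of the 8 genes. All shares here leave out error-free reads within the stretches shared by the Mir24 genes or by the Mir3074 genes. The full share of the clusters, and the part of the miR-23 genes in it, were therefore not measured. The chromosome 13 cluster took 1.31% ± 0.115 of counts (SD, n = 2) and the chromosome 8 cluster 0.516% ± 0.0619 (SD, n = 2). The chromosome 13 genes gave 68.8% of the counts of both clusters in replicate 1 (exact Clopper-Pearson 95% interval 68.5% to 69.1%) and 74.7% in replicate 2 (74.4% to 75.0%). The chromosome 13 share lay above that of chromosome 8 in both libraries. Intervals and zero limits here cover counting error only.

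Mir23b, whose mature products are known from endothelial and glial cells, was the most abundant of the 8 genes. It had 56201 counts, or 11670 CPM, in replicate 1 and 43703 counts, or 12503 CPM, in replicate 2. These levels ranked 19 and 16 among all 2202 genes, of which 797 had a count in either library. Reads that fit several places are left out, so these and later ranks hold for the remaining counts only. Mir23a, its counterpart on chromosome 8, had 26602 counts, or 5524 CPM, in replicate 1 and 16034 counts, or 4587 CPM, in replicate 2. The levels of these genes did not overlap, with Mir23b 2.11 and 2.73 times as high as Mir23a. Mir23a thus gave 32.1% of the miR-23 counts in replicate 1 (31.8% to 32.4%) and 26.8% in replicate 2 (26.5% to 27.2%).

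The miR-27 genes, whose products repress the adipogenic factor Pparg among other targets, were lower and more uneven between the clusters. Mir27b had 2929 counts, or 608.2 CPM, in replicate 1 and 4919 counts, or 1407 CPM, in replicate 2. Mir27a had 262 counts, or 54.4 CPM, in replicate 1 and 367 counts, or 105.0 CPM, in replicate 2. Mir27b lay above Mir27a by 11.2 and 13.4 times. Mir27a gave 8.21% of the miR-27 counts in replicate 1 (7.28% to 9.22%) and 6.94% in replicate 2 (6.27% to 7.66%), intervals that overlap. In both libraries the chromosome 8 share of miR-27 counts was below its share of miR-23 counts, beyond these intervals.

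The miR-24 genes had the lowest counts of their clusters, and these exclude the shared miR-24-3p stretch printed above. Mir24-1 had 284 counts, or 59.0 CPM, in replicate 1 and 179 counts, or 51.2 CPM, in replicate 2. Mir24-2 had 110 counts, or 22.8 CPM, in replicate 1 and 118 counts, or 33.8 CPM, in replicate 2. Mir24-1 lay above Mir24-2 in both libraries, by 2.58 and 1.52 times. Mir24-2 gave 27.9% of the miR-24 counts in replicate 1 (23.5% to 32.6%) and 39.7% in replicate 2 (34.1% to 45.5%). How much miR-24-3p the tissue held was not measured by these counts.

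Of the opposite-strand genes, Mir3074-1 differed widely between the libraries and Mir3074-2 was barely detected. Mir3074-1 had 230 counts, or 47.8 CPM (95% interval 41.8 to 54.3), in replicate 1 and 21 counts, or 6.01 CPM (3.72 to 9.18), in replicate 2. The intervals did not overlap, and Mir3074-1 ranked 242 among all genes in replicate 1 and 363 in replicate 2. Mir3074-2 had 0 counts in replicate 1, which by the limit of 3 counts allows up to 0.623 CPM, and 2 counts, or 0.572 CPM, in replicate 2. It was not tested, since it did not reach 10 counts.

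By mean level the order was Mir23b, Mir23a, Mir27b, Mir27a, Mir24-1, Mir24-2, Mir3074-1 and Mir3074-2. The first 3 did not overlap with their neighbours over the 2 libraries. The range of Mir24-1, 51.2 to 59.0 CPM, overlapped that of Mir27a, 54.4 to 105.0 CPM, and the range of Mir24-2 lay within that of Mir3074-1. The order of Mir27a and Mir24-1, and that of Mir24-2 and Mir3074-1, is therefore not settled by the spread. On chromosome 8 the level fell in both libraries from Mir23a through Mir27a to Mir24-2, and on chromosome 13 from Mir23b through Mir27b to Mir24-1. The Mir24 counts leave out the shared miR-24-3p stretch, so the last step of each fall does not measure miR-24 as a whole.

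**Figure D2:**
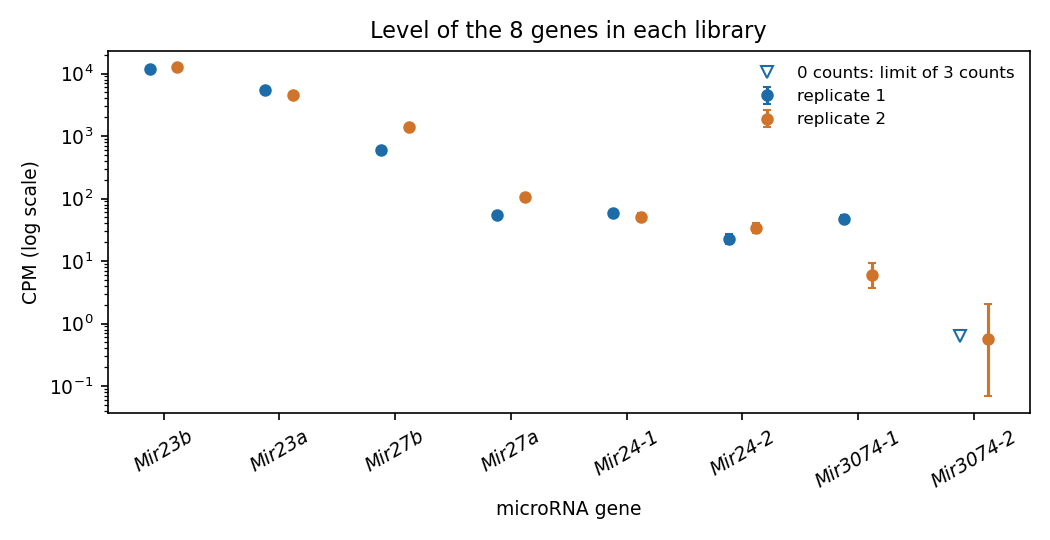
CPM on a log scale for each of the 8 genes, ordered by mean, with replicate 1 in blue and replicate 2 in orange. Error bars are 95% Clopper-Pearson intervals, and the open triangle marks the limit of 3 counts, 0.623 CPM, for the 0 counts of Mir3074-2 in replicate 1. The points run from 12503 CPM for Mir23b down to 0.572 CPM for Mir3074-2, and those of Mir3074-1 lie farthest apart among genes with counts in both libraries.

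Between the libraries, 2 of the 7 tested members were called different, against 18.7% of all tested genes. Mir27b was called higher in replicate 2, with a log2 ratio of 1.21 and an adjusted p of 4.79e-294 by the exact binomial test. With DESeq2 size factors its ratio was 1.04, still past the minimum of 1. Mir3074-1 was called higher in replicate 1, with a log2 ratio of -2.96 and an adjusted p of 5.00e-32 by the same exact test. Over the settings in which it could be tested, its ratio ran from -3.13 to -2.93.

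The other members stayed below the minimum ratio. Mir27a moved in the direction of Mir27b, with a log2 ratio of 0.95, and missed the minimum of 1. Mir24-2 had a ratio of 0.56 and Mir24-1 a ratio of -0.20, the latter with an adjusted p of 0.219 in the exact test. Mir23a had a ratio of -0.27, and Mir23b one of 0.099, which turned to -0.072 with DESeq2 size factors. The median absolute log2 ratio over all tested genes was 0.54, so the miR-23 genes and Mir24-1 differed less than that between the libraries and Mir27a, Mir27b and Mir3074-1 more. Mir24-2 lay close to it, and its ratio was 0.39 with DESeq2 size factors.

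Within each cluster, the proportion of miR-23 to miR-27 counts changed between the libraries in the same direction. Mir23b had 19.2 times the counts of Mir27b in replicate 1 and 8.88 times in replicate 2. Mir23a had 102 times the counts of Mir27a in replicate 1 and 43.7 times in replicate 2. These ratios are free of the library scaling, and they were 2.16 times and 2.32 times as high in replicate 1 as in replicate 2. With 1 value of each ratio per library, no test of this change was made.

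**Figure D3:**
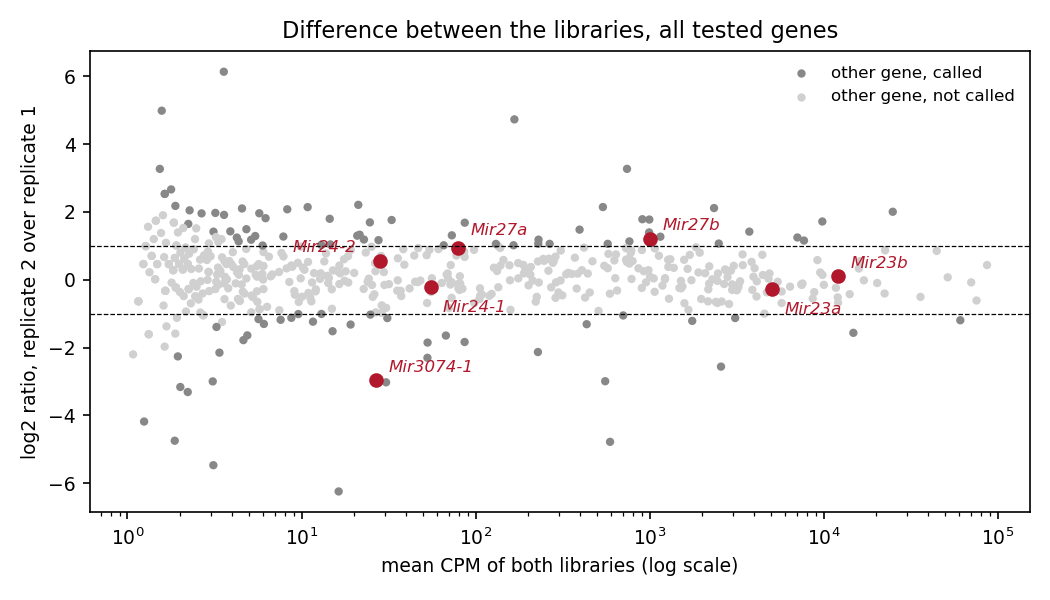
Log2 ratio of replicate 2 over replicate 1 against mean CPM on a log scale for the 540 tested genes, with the 7 tested members in red and dashed lines at the minimum ratio of 1 in either direction. Dark grey points are other genes called different and light grey points are other genes not called. Mir27b, at 1.21, and Mir3074-1, at -2.96, lie outside the lines, and the other 5 members lie between them.

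Some markers of other cells also differed between these libraries. Over all tested genes, 7.22% were called higher in replicate 1 and 11.5% higher in replicate 2. Of the red blood cell markers, 2 of 4 were found under their names, Mir451a and Mir144. Both were called higher in replicate 1, and together they took 0.120% and 0.00481% of counts. Mir486, the annotated name nearest to the other listed markers and looked up after its values were seen, had 152 and 99 counts, a log2 ratio of -0.15 and was not called. Of the choroid plexus and ciliated cell markers, 3 of 6 tested genes were called higher in replicate 2, and the 7 genes took 0.258% and 0.533% of counts. Of the neuronal markers, 1 of 11 tested genes was called higher in replicate 2, Mir132 with a log2 ratio of 1.25, and 0 higher in replicate 1. The endothelial microRNA Mir126a took 1.49% and 0.930% of counts and was not called, and Mir126b had 0 counts. In bulk tissue, fewer cells of a type and less RNA per cell cannot be told apart. The part of these markers in the differences of Mir27b and Mir3074-1 was not tested.

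Other microRNAs of the cell types in which miR-23 and miR-27 are known give a scale for these levels. The vascular list of Mir126a, Mir143, Mir145a, Mir221, Mir222 and Mir130a took 2.58% ± 0.286 of counts (SD, n = 2). Its most abundant member was Mir126a, at 14888 CPM in replicate 1 and 9301 CPM in the other library, a range that contains both values of Mir23b. Of its 6 genes 1, Mir145a, was called higher in replicate 2 and 0 higher in replicate 1, with a median log2 ratio of 0.26. Over all tested genes these shares were 11.5% and 7.22%. The astrocyte list of Mir21a, Mir29a, Mir143, Mir146, Mir181a-1 and Mir181a-2 took 0.771% ± 0.187 of counts (SD, n = 2), and Mir143 was its highest member at 3946 ± 176 CPM (SD, n = 2). Of its 6 genes 2, Mir21a and Mir29a, were called higher in replicate 2 and 0 higher in replicate 1, with a median log2 ratio of 0.36. These counts stand beside the same 11.5% and 7.22% of all tested genes, and no test of either list was made. Mir143 stands in both lists, and Mir146, Mir181a-1 and Mir181a-2 each share bases with another gene.

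Among the 212 genes that averaged 100 counts or more and shared no stretch with another microRNA gene, those with the closest log2 ratio over the 2 libraries were sought. For Mir23a, at -0.27, these were Mir136 and Mir148a, both at -0.26. For Mir23b they were Mir155, at 0.10, and Mir425, at 0.092. For Mir3074-1, at -2.96, they were Mir185, at -2.99, and the red blood cell microRNA Mir144, at -3.02. Likeness over 2 libraries is a single number per gene and describes these libraries only.

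In the gene counts, the strands of the Mir24-1 locus were read in more even amounts than those of the other microRNA loci compared. The loci compared had at least 100 counts and annotated genes on both strands. The counts leave out error-free reads within the stretches that Mir24-1 shares with Mir24-2 and Mir3074-1 with Mir3074-2. Evenness of the strands over the whole locus was therefore not measured. All 68 bases of Mir24-1 lie within Mir3074-1. The count of one gene in the antisense column equalled the sense count of its partner in each library, so these are the same reads seen from either strand. Mir3074-1 gave 44.7% of the counts of the pair in replicate 1 (40.4% to 49.2%) and 10.5% in replicate 2 (6.62% to 15.6%). The intervals do not overlap, and the level of Mir24-1 changed far less than that of its partner. At Mir24-2, where 83 bases are overlapped, Mir3074-2 gave 0 of 110 counts in replicate 1, which by the same limit of 3 counts allows up to 2.73%, and 2 of 120 counts, or 1.67% (0.202% to 5.89%), in replicate 2.

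The files hold 32 pairs of microRNA genes that overlap on opposite strands, and 26 of them had at least 100 counts in all. In 18 of these 26 pairs the less abundant gene had 0 counts in both libraries, among them the 3 pairs with the most counts, Mirlet7e with Gm25927, Mir126a with Mir126b, and Mir191 with Gm24083. Only 2 of the 26 pairs had at least 1% of their counts on the less abundant gene in both libraries, Mir24-1 with Mir3074-1 and Mir486 with Mir3107. In the 25 pairs other than Mir24-1 with Mir3074-1, that share reached at most 4.40% in replicate 1 and 2.94% in replicate 2, both in Mir486 with Mir3107. Mir486 and Mir3107 were named after their values were seen. No test was made across these pairs, and the shares at the miR-24 loci leave out the shared stretch.

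**Figure D4:**
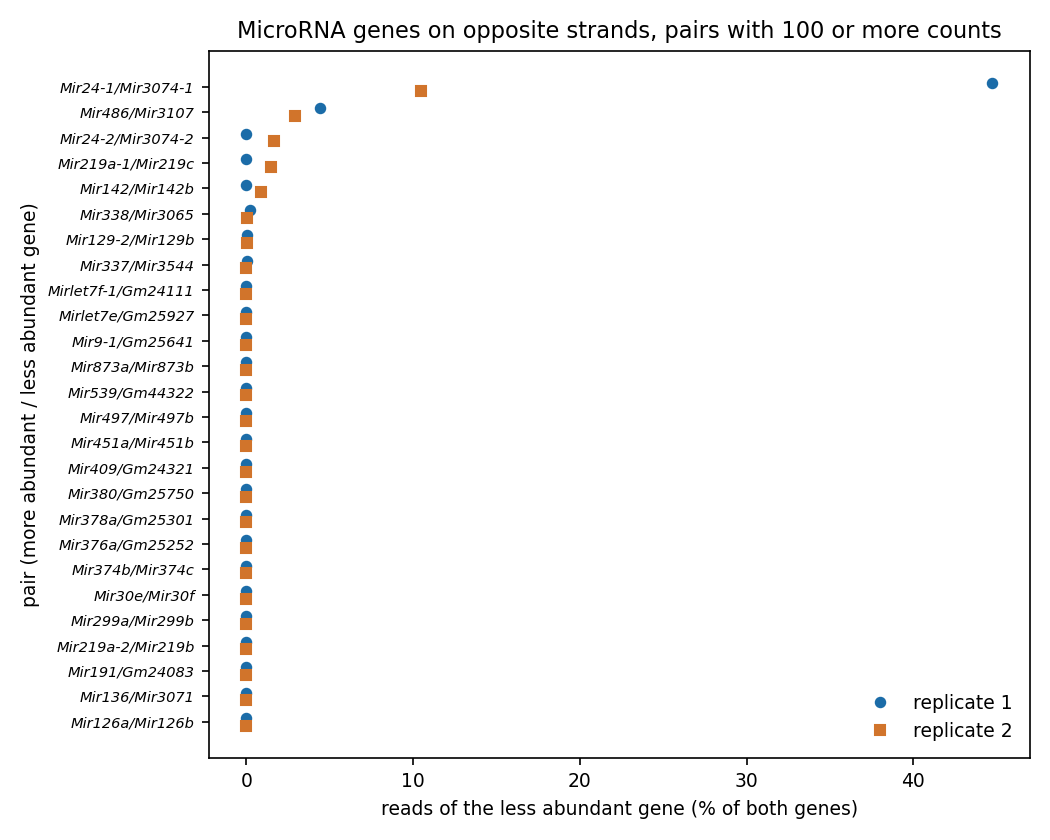
Share of reads on the less abundant gene, as a percentage of both genes, for the 26 pairs of microRNA genes on opposite strands with at least 100 counts, with replicate 1 as blue circles and replicate 2 as orange squares. The pair of Mir24-1 and Mir3074-1 lies highest in both libraries, at 44.7% and 10.5%, and the pair of Mir24-2 and Mir3074-2 lies at 0% and 1.67%. Error-free reads lying wholly within the stretch shared by the miR-24 loci are left out.

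Reads of the wrong orientation were rare elsewhere. On all genes outside these pairs, the antisense column held 164 counts in replicate 1 and 97 in replicate 2, or 0.00362% and 0.00295% of both strands. Mir23a, Mir27a, Mir23b and Mir27b had 0 antisense counts in both libraries. For Mir23b this allows an antisense share of up to 0.00534% in replicate 1 and 0.00686% in replicate 2, and for Mir27a, the least covered of the 4, of up to 1.15% and 0.817%. In the unstranded column Mir24-1, Mir24-2 and both Mir3074 genes had 0 counts. That column sets 281108 reads of replicate 1 and 212068 of replicate 2 aside as ambiguous. In each library its gene counts plus the ambiguous reads equalled the sense counts plus the antisense counts outside the pairs, so the reads set aside were those of overlapping genes. Only the stranded columns show these 4 genes.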

How the data were processed

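MicroRNA sequencing of hippocampus gave 1 deposited file of raw counts per library, with 1 unstranded column and 1 column per strand. Per the submitters' notes, the assembly was mm10 and the annotation GENCODE M21. For the aligner, the counter and any trimming: not given in the sources used here. The 4 lines of totals in each file (unmapped, multi-mapping, outside genes, ambiguous) stayed out of library sizes. The first strand column was taken as sense: it held 4815761 and 3495401 counts on genes against 281272 and 212165 in the other. All 2202 identifiers matched GENCODE M21, which gave names, positions, host genes and hairpins.

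Libraries were compared by an exact binomial test (SciPy) given the library totals, over genes with at least 10 counts in total, with Benjamini-Hochberg adjustment. Log2 ratios had 0.5 counts added. The test was tried on simulated counts with counting error only, so that trial did not cover other spread between libraries. Shares have Clopper-Pearson intervals, and a count of 0 was limited at 3 counts. No group contrast exists, so no condition was tested.

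The members, lists and the rule for other named genes (the 2 closest ratios for the highest gene of each cluster and for Mir3074-1, the highest list members, the 3 largest opposite-strand pairs) were chosen with earlier results of these data known. Mir146a was read as Mir146, its name in the annotation. Alternatives covered scaling (TMM in edgeR, DESeq2 size factors), filters, the ratio minimum, added counts, unstranded counts, the denominator and each replicate left out. Python 3.11.15, SciPy 1.17.1, pandas 2.3.3, edgeR 4.0.16 and DESeq2 1.42.0 were used. Allele differences between the parental strains were not analysed here.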

Additional observations from a re-analysis of the deposited data

How the results depend on the processing

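Depth limits Mir3074-1 and Mir3074-2, which rest on 21 and 2 counts in replicate 2. Taken per all reads, unmapped and multi-mapping included, the chromosome 8 cluster took 0.191% and the chromosome 13 cluster 0.482%, by construction of the larger denominator. The cluster counts in these shares still leave out reads that fit several places. With unstranded counts 1 member was called, Mir27b, since Mir3074-1 has 0 counts there. By the adjusted p alone, without the minimum ratio, 301 of 540 genes and 6 of 7 members were called, all but Mir24-1. With DESeq2 size factors the adjusted p of the exact test was 0.0130 for Mir24-1 and 0.0767 for Mir24-2, so the member left out by p alone depended on the scaling. The log2 ratio of Mir23b turned to -0.072 with DESeq2 size factors, while the calls of Mir27b (1.04 to 1.21) and Mir3074-1 (-3.13 to -2.93) kept their side of the threshold in every setting that tested them. The share of called genes that were higher in replicate 2 was 61.4% in the report, but 53.1% under TMM scaling and 44.4% under DESeq2 scaling. With a replicate left out, each level or share becomes that of the other library, as printed in the report. No paired analysis was possible because there is a single group.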

Other observations

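The files hold 27 runs of 3 or more same-strand microRNA genes in which neighbours lie no more than 10000 bases apart, and 8 of these runs had counts on every gene in both libraries. By the ratio of the highest to the lowest mean level, the chromosome 13 cluster ranked 3 and the chromosome 8 cluster 4 among these 8, at 219 and 179 times. The ratio of Mir23b to Mir24-1 was 198 in replicate 1 and 244 in replicate 2, and that of Mir23a to Mir24-2 was 242 and 136. In both clusters the lowest gene is a miR-24 gene, whose shared stretch is outside the counts.

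Reads on both strands were also seen at low counts in other pairs, all named after their values were seen. Mir338 and Mir3065 had 2070 and 4 counts in replicate 1 and 2551 and 1 in replicate 2. Mir129-2 and Mir129b had 3669 and 2 counts in replicate 1 and 3366 and 2 in replicate 2. Mir216b and Mir216c, a pair below 100 counts, had 5 and 1 counts in replicate 1 and 10 and 0 in replicate 2.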
